A study of Mus musculus with 3 samples.

Results

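The 5 loci described here hold the mouse genes Pax2, Pax3, Pax6, Pax7 and Pax8, and they were searched for listed binding sites of the Polycomb protein Cbx2. A locus was taken as a fixed window on the mm9 mouse genome: 44800000 to 44930000 on chromosome 19 for Pax2, 78080000 to 78240000 on chromosome 1 for Pax3, 105470000 to 105570000 on chromosome 2 for Pax6, 139270000 to 139420000 on chromosome 4 for Pax7 and 24250000 to 24360000 on chromosome 2 for Pax8. Of the 2217 peaks in the deposited table, 1 overlapped these windows. It lay in the Pax2 window. The windows of Pax3, Pax6, Pax7 and Pax8 held no listed peak. Cbx2 was profiled by chromatin immunoprecipitation and sequencing (ChIP-seq) in C3H10T1/2 cells, a line of mesenchymal progenitors derived from C3H mouse embryos, used at passage 10 to 15. One ChIP library came from cells with stable expression of wild-type histone H3.3 that carries a FLAG-HA tag (WT). The other came, by its title and the design text, from cells expressing the K36M form of H3.3, in which methionine takes the place of lysine 36. The genotype label of that sample gives the wild-type histone instead, so the assignment rests on the title and the design text. Each group is 1 library, so replicate error is unknown and no test of WT against K36M was possible.

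Pax genes encode transcription factors that bind DNA through a paired domain and direct the formation of organs in the embryo. Pax2 and Pax8, close relatives of each other, act in kidney development, and Pax8 also acts in the thyroid. Pax3 and Pax7, another related pair, act in the neural crest and in muscle precursors, and Pax6 acts in the eye, the brain and the pancreas. Genes of this kind are typical targets of Polycomb repression in cells that do not use them. Cbx2 is a subunit of Polycomb repressive complex 1 whose chromodomain binds H3 with trimethylated lysine 27. The K36M form of H3.3 inhibits enzymes that methylate lysine 36. The study compared where Cbx2 sits in the genome when cells carry one or the other histone.

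Polycomb proteins in mammals are known to gather at DNA rich in CpG, a C followed by a G. The promoters of the loci are shown for that reason, as the 250 bases before an annotated start, with each CpG in capitals. They come from RefSeq on the build GRCm38.p6, which is not the mm9 build of the peaks, so none of them was placed relative to a peak. The table had entries for 4 of the 5 genes (Pax2, Pax6, Pax7 and Pax8) and 7 starts in all. The start with the most CpGs is printed for each gene, and for Pax6, whose 2 starts tie, the first.
Pax2 (chr19:44756656-44756905, + strand): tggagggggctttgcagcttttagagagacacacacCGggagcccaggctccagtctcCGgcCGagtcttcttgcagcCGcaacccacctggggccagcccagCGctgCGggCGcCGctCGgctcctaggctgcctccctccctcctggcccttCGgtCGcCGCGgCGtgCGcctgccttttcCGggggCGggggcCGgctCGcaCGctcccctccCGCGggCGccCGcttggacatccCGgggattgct
Pax6 (chr2:105668646-105668895, + strand): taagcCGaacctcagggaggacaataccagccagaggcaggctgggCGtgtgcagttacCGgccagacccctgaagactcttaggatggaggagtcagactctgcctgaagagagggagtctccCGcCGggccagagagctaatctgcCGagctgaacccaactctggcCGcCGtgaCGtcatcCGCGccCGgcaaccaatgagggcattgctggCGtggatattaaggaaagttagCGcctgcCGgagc
Pax7 (chr4:139832969-139833218, - strand): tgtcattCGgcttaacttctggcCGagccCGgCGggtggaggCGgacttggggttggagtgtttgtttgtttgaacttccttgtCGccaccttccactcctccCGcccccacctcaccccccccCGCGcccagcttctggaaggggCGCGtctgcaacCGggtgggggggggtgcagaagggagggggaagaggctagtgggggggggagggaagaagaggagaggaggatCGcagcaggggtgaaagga
Pax8 (chr2:24475600-24475849, - strand): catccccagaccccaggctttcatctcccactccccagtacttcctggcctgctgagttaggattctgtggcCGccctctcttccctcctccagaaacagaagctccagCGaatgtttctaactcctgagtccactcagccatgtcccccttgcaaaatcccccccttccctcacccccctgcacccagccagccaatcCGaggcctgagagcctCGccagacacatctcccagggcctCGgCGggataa

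The Pax2 promoter printed above held 25 CpGs, and 10.7% of the 32851 promoter windows of this length in the table held as many or more. CpG reads the same on both strands, so a single count covers both. Pax2 has another 2 annotated starts, with 20 CpGs (17.9% of windows held as many or more) and 5 CpGs (55.6%). Both Pax6 starts had 15 CpGs (27.3%), the Pax7 start had 13 (31.5%) and the Pax8 start had 6 (50.4%). The median over all windows was 6, and 92.1% held at least 1 CpG. Among the printed promoters, Pax2 had the most CpGs, and Pax8 sat at the median of all windows. Pax2 has more annotated starts than Pax6, Pax7 or Pax8, so printing the highest start favours it. Its start with 5 CpGs had fewer than any printed promoter. These counts describe the sequence alone, and their relation to Cbx2 was not tested.

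The Pax2 peak ran from 44815400 to 44818999 on chromosome 19 (mm9), a length of 3600 bp, or 2.77% of its window. It began 15.4 kb above the lower edge of the window. The WT library held 320 reads in it, or 10.9 reads per 1000000 library reads (RPM; 95% exact Poisson interval 9.76 to 12.2). The K36M library held 146 reads, or 4.03 RPM (3.40 to 4.74). WT was therefore the higher library, and the intervals of the libraries did not overlap. The K36M/WT ratio was 0.369 (95% exact interval 0.301 to 0.450), a 2.71-fold lower signal in K36M (2.22-fold to 3.32-fold). On the log2 scale with a pseudocount of 0.1 RPM, the ratio was -1.42. These intervals cover counting error only, because each group is 1 library. No molecular identifiers separate PCR copies from molecules, and duplicate handling is not given. Copies counted as reads would make the intervals too narrow. They leave out the variation between cultures and immunoprecipitations. The K36M library was the deeper of the pair, with 36243012 reads against 29278813.

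A difference of this size was common in these libraries. At least 2-fold lower signal in K36M was found at 75.3% of all listed peaks, so the single Pax2 peak past that limit is no result particular to Pax2. The list has a lower edge in WT density, described below, which can raise this share. The median log2 ratio over all 2217 peaks was -1.45, and 1154 peaks had a lower value than the Pax2 peak. The ratio that corresponds to the median peak, 0.341, lay inside the interval of the Pax2 ratio. The other 81 peaks of chromosome 19 had a median log2 ratio of -1.37, and 61 of them were at least 2-fold lower in K36M. The Pax2 peak thus sat near the middle of its chromosome and of the whole table. The lower level also rests on the scaling to library reads: with the libraries set to the same median over all peaks, the Pax2 ratio was 1.06, and 77 of the 2217 peaks (3.47%) were at least 2-fold lower in K36M. With the same sum over all peaks, the Pax2 ratio was 0.892 and the share of peaks past the limit was 8.39%. Both scalings are set from these same peaks, so they take out any change that the peaks share. For a peak near the median, a same-median ratio near 1 follows from that.

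The Pax2 peak stood out more by its size and density than by its change. It was longer than 76.6% of the listed peaks, whose median length was 1600 bp. Its WT signal was above that of 80.9% of peaks (median 3.83 RPM), and its K36M signal above that of 82.4% (median 1.32 RPM). Long peaks collect more reads, so signal per length was compared as well. In WT it held 17.8 reads per 200 bp, more than 84.2% of peaks, against a median of 13.8. In K36M it held 8.11 reads per 200 bp, more than 72.6% of peaks, against a median of 6.0. The Pax2 peak therefore ranked in the upper part of the table in both libraries, also per length.

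Peaks of the same length give a closer setting for these values. The table held 42 other peaks of 3600 bp, with WT signal from 7.21 to 21.1 RPM and a median of 8.49 RPM. Of these, 36 had less WT signal than the Pax2 peak and 6 had more. In K36M their signal ran from 1.30 to 31.6 RPM with a median of 2.40 RPM, and 34 had less than the Pax2 peak. Their median log2 ratio was -1.71, and 32 of the 42 had a lower ratio than Pax2. Among peaks of its own length, the Pax2 peak thus ranked high in both libraries and showed a smaller reduction than most. The median ratio of these peaks, 0.297, lay just below the lower end of the Pax2 interval, 0.301.

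**Figure D1:**
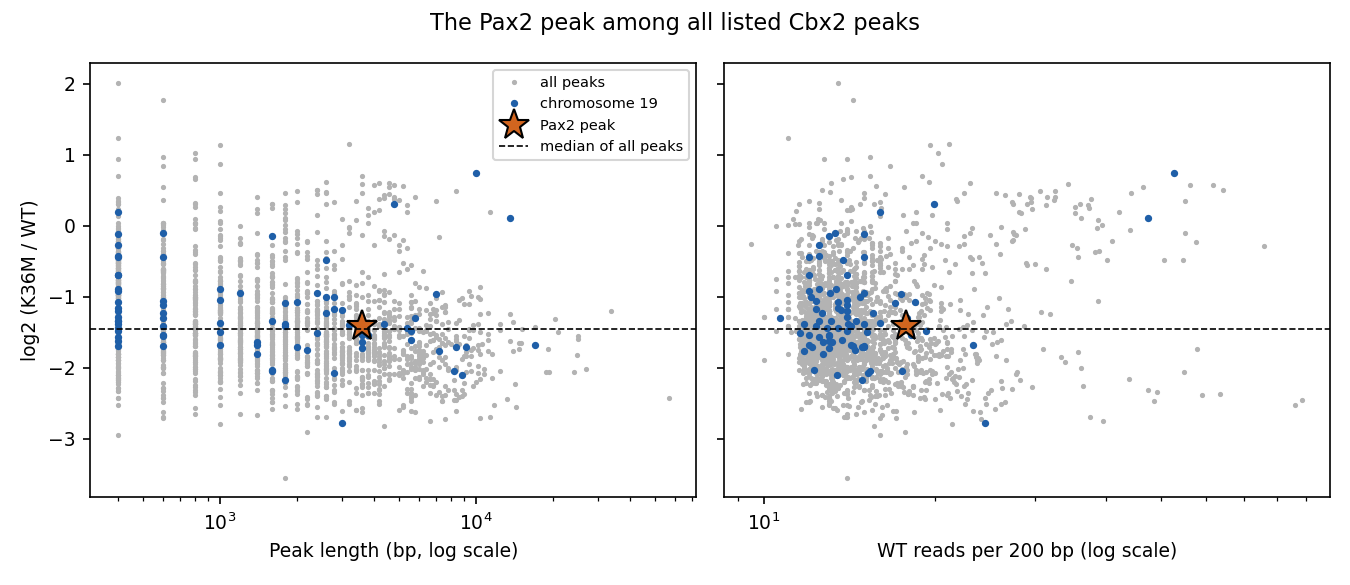
Log2 ratio of K36M to WT (pseudocount 0.1 RPM) against peak length and against WT reads per 200 bp, both on log axes. Grey points are all 2217 listed peaks, blue points those of chromosome 19, the star is the Pax2 peak and the dashed line the median over all peaks. The Pax2 peak, at -1.42, sits on the median line of -1.45 and to the right of most peaks in length and density.

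The listed peaks had a lower edge of WT density, 9.5 reads per 200 bp, and the Pax2 peak was well above it. At the depth of the K36M library that edge corresponds to 11.8 reads per 200 bp. The K36M density of the Pax2 peak, 8.11, was below this value, as it was for 86.9% of all peaks. The lowest K36M density in the list was 1 read per 200 bp. A list with an edge in WT and none as high in K36M can favour peaks with higher WT signal. The direction at listed peaks is therefore not independent of how the list was made, and the size of this effect was not tested. The same edge limits what can be said of the other loci. No listed peak in a window means that no stretch there was entered in the table. The table gives no reads outside its peaks, so Cbx2 levels at Pax3, Pax6, Pax7 and Pax8 below the edge in WT, or any signal found only in K36M, remain unmeasured here.

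A window without a peak was also the usual case among windows set across the chromosomes. Those windows were set without regard to genes, so the share for windows placed on comparable genes was not measured. With windows of the same size set at every 1 kb between the first and the last peak of each chromosome, 7.73% held a listed peak at the size of the Pax2 window, 9.14% for Pax3, 6.24% for Pax6, 8.68% for Pax7 and 6.74% for Pax8. Among the 5 loci, 1 held a peak, and 5 loci are too few to read this count against those shares. With windows wider by 50 kb on each side the count was again 1 of 5, where 10.9 to 13.5% of windows of those sizes held a peak. It was 2 of 5 at 200 kb, against 22.38 to 24.35% of windows, and 4 of 5 at 500 kb, against 38.7 to 40.1%.

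The loci differed in how far they lay from listed peaks. The Pax2 peak was isolated itself, 428.4 kb above the previous peak and 412.8 kb below the next, and 78.8% of peaks had a neighbour closer than that. Around Pax7, which marks muscle stem cells, the nearest peak lay 3.57 Mb below the window and the next 5.80 Mb above it. The stretch without a listed peak there was 9.52 Mb long, and 34 of the 2197 stretches between consecutive peaks were at least that long. For Pax3 the stretch was 4.05 Mb, with the nearest peak 249.8 kb above the window. For Pax8 it was 1.43 Mb, with the nearest peak 164.2 kb above, and for Pax6 it was 896.2 kb, with the nearest peak 290.2 kb above. Pax7 thus lay farthest from any listed peak and Pax8 nearest among the loci without a peak. Long stretches held much of the sequence between listed peaks. Those at least as long as the one around Pax7 held 18.5% of all bases between peaks. The corresponding values were 53.0% for Pax3, 81.2% for Pax8 and 88.9% for Pax6.

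**Figure D2:**
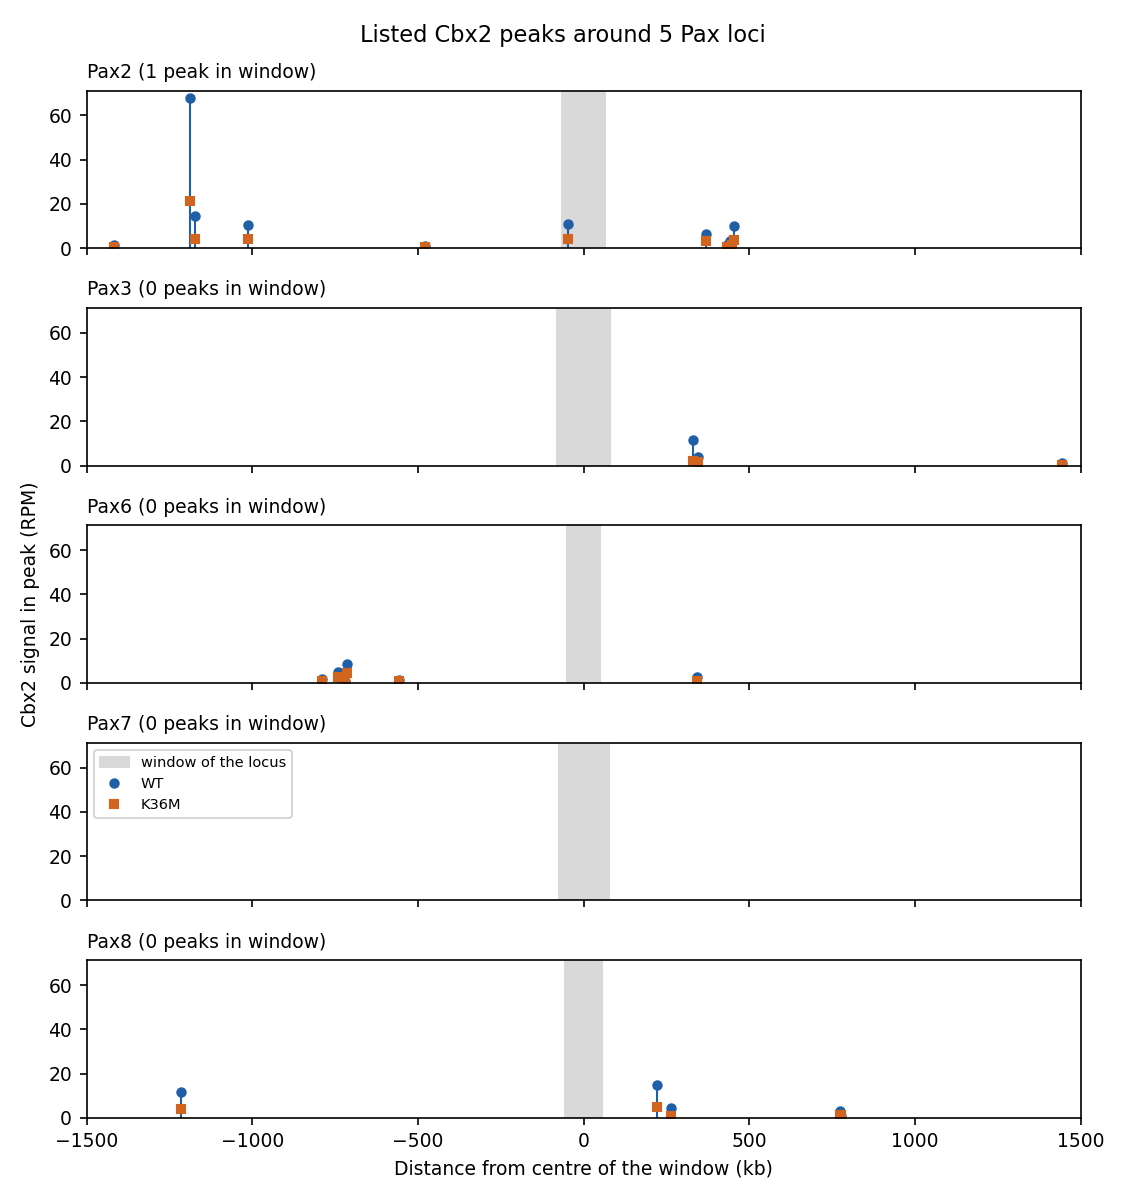
Listed Cbx2 peaks within 1.5 Mb of the centre of each Pax window (x axis, distance in kb), with their signal in RPM on the y axis. Blue circles are WT, orange squares K36M and grey bands the windows. The Pax2 band holds 1 peak, the other 4 bands hold none, and no peak falls in the Pax7 panel.

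The peaks nearest to the 4 empty windows were not assigned to any gene, and they are given as the closest Cbx2 signal in the table. The one beyond Pax3, from 78489800 to 78492599 on chromosome 1, went from 11.7 RPM (WT) to 1.99 RPM (K36M), with a ratio of 0.169 (95% exact interval 0.129 to 0.219). That interval lay wholly below the Pax2 interval. The peak beyond Pax6, from 105860200 to 105861399 on chromosome 2, was weak, at 2.73 RPM (WT) and 1.05 RPM (K36M), with a ratio of 0.384 (0.254 to 0.571). The peak beyond Pax8, from 24524200 to 24529199 on chromosome 2, had 14.8 RPM (WT) and 5.05 RPM (K36M), with a ratio of 0.341 (0.285 to 0.406). The intervals of both overlapped that of Pax2. The distant peak below Pax7, from 135699600 to 135703599 on chromosome 4, kept most of its signal, at 23.8 RPM (WT) and 19.6 RPM (K36M), with a ratio of 0.824 (0.741 to 0.916). Its interval lay wholly above that of Pax2. Scaled to library reads, signal in K36M was lower than in WT at the Pax2 peak and at all 4 of these nearest peaks. The list itself can favour this direction through its edge in WT, so the shared direction is no independent result. The factors differed, and some of the counting intervals did not overlap. The direction at some of these peaks depends on the scaling. With the libraries set to the same median, the ratio was 0.488 at the peak beyond Pax3 and 0.984 beyond Pax8. It was 1.06 at the Pax2 peak, 1.11 beyond Pax6 and 2.38 below Pax7. With the same sum, only the peak below Pax7 was higher in K36M, with a ratio of 1.99. The ratio was then 0.409 beyond Pax3, 0.825 beyond Pax8, 0.892 at the Pax2 peak and 0.929 beyond Pax6.

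**Figure D3:**
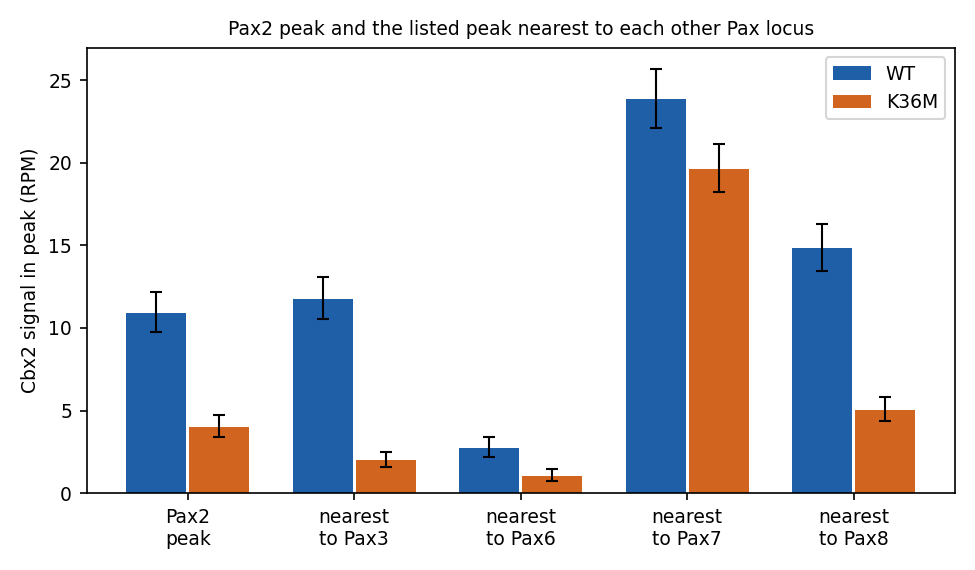
Cbx2 signal in RPM in the Pax2 peak and in the listed peak nearest to each of the other Pax windows, with WT in blue and K36M in orange. Bars are single libraries and error bars 95% exact Poisson intervals of the reads, which cover counting error only. On this scale WT is the higher bar at all 5 peaks. WT is higher at 2 of the 5 with the libraries set to the same median. With the same sum it is higher at all but the peak nearest to Pax7. The gap shown is widest in proportion at the peak nearest to Pax3 (11.7 against 1.99 RPM). It is narrowest at the peak nearest to Pax7 (23.8 against 19.6 RPM).

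The genes next to each Pax gene were read from the RefSeq gene order on GRCm38.p6. Among protein-coding genes, Pax2 lies between Hif1an, which encodes an asparagine hydroxylase acting on hypoxia-inducible factor, and Slf2. Pax3 lies between Epha4, an ephrin receptor gene, and Gm2102. Pax6 lies between Rcn1 and Immp1l and overlaps Elp4, a subunit gene of the Elongator complex. Pax7 lies between Tas1r2, a taste receptor gene, and Klhdc7a, and Pax8 lies between Psd4 and Cacna1b, a calcium channel gene. No annotation of the mm9 build was used here, so the Pax2 peak is given by its position in the window and not as exonic, intronic or upstream of the gene.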

How the data were processed

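The 3 libraries are 1 input and 2 Cbx2 ChIP libraries. The submitters' processing notes name Bowtie 1.0.0 and mm9. The peak caller, duplicate handling and any role of the input were not given in the sources used here. The labels disagree on the supplier of the Cbx2 antibody. The authors deposited 1 table of peaks, with a value column each for WT and K36M. Their headers say RPKM, yet the deposited values behave as RPM: all were whole multiples of a single step per column, within 1e-06 of a read, whatever the peak length. That step was taken as 1 read, which gave the reads per peak and 29278813 (WT) and 36243012 (K36M) reads per library. The WT column was read as the ChIP library because the table is named for Cbx2, and every WT value and ratio here depends on that. The input has no column and was not analysed here.

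Coordinates are those of the table, and lengths count both ends. A peak belonged to a locus if it overlapped the window. Named peaks are those in the windows and those nearest outside. With 1 library per group, no count test and no p-value is possible. Ratios carry exact (Clopper-Pearson) intervals given the reads of both libraries, and RPM exact Poisson intervals, at 95%. The ratio interval, the log2 ratio and the recovery of library reads were tested on simulated independent Poisson reads. Such reads follow the model that the interval assumes. This tests the code, and not whether that model holds for these libraries. The other calculations were not simulated. Alternatives were other scalings, pseudocounts, fold limits, filters and windows. The members were chosen with earlier results of these data known. Python 3.11.15, pandas 2.3.3 and SciPy 1.17.1 were used.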

Additional observations from a re-analysis of the deposited data

How the results depend on the processing

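The Pax2 value depended on the scaling of the libraries. With K36M multiplied by 2.89, so that the libraries had the same median over all peaks, the Pax2 ratio was 1.06 and the log2 value, which is also the median over the Pax peaks because there is 1, turned from -1.42 to 0.089. With the same sum (a factor of 2.42), these were 0.892 and -0.16. Under either scaling, and at a limit of 3-fold, the count of Pax peaks past the limit was 0 instead of 1. Both factors came from these same peaks, so they take out any change that the peaks share. The Pax2 peak lay near the median of all peaks, so a same-median ratio near 1 was set in advance. Listed peaks held 1.63% of the WT reads and 0.674% of the K36M reads. Which scaling is right was not tested. Pseudocounts of 0.01 and 1, a limit of 1.5-fold, the filter at the lower quartile, the median of peak ratios, peaks wholly inside the window and windows wider by 50 kb kept the Pax2 value within its counting interval and the counts at 1. Windows wider by 200 and 500 kb, chosen after seeing the data, gave 2 and 4 loci with a peak. Of all windows of those sizes, 22.38 to 24.35% and 38.7 to 40.1% held a peak. The median over all peaks was -1.55 with a pseudocount of 0.01, -0.94 with 1 and -1.51 with the filter. Leaving out the strongest peak of a locus was not run, since Pax2 has 1 peak, and no replicate could be left out. No paired analysis was possible because WT and K36M are single libraries.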
